A study of Mus musculus with 7 samples.

Results

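The 92 gene regulatory elements (GREs) described here are the distal intergenic members of a library of candidate enhancers, which held 195 others, that was screened by PESCA (paralleled enhancer single-cell assay) for expression in somatostatin (SST) interneurons. They were chosen by position alone: the annotation deposited with the library calls them intergenic, and places them between 100 and 500 kb from the nearest annotated transcription start site. They make up 92 of the 182 intergenic GREs; the other intergenic GREs lie within 100 kb (50 GREs) or beyond 500 kb (40 GREs), and the remainder are in introns (84) or in exons and at gene ends (21). The PESCA screen used adult C57BL/6J male mice aged 6 to 10 weeks, whose visual cortex was injected with the pooled AAV9 library, in which each GRE is represented by 3 barcodes carried in the viral transcript. Nuclei were then profiled by single-nucleus RNA-seq (snRNA-seq), with amplification of the viral transcripts, in 10 libraries that form 1 sample. The study took 5 libraries from each animal, and the libraries carry names in 2 sets of 5, but no label says that a set is an animal, so the libraries and sets served as a description of spread and no test between cell types was made. ATAC-seq, which reads out open chromatin, was available from 6 separate samples of GFP-tagged nuclei purified from whole cortex, 2 each from mice in which Sst-IRES-Cre (SST), Pv-Cre (PV) or Vip-IRES-Cre (VIP) switches on the nuclear tag of SUN1-2xsfGFP-6xMYC, aged 6 to 12 weeks. The tag marks every cell in which Cre was ever active.

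Enhancers are stretches of DNA bound by transcription factors that raise transcription from a promoter, often over long distances and past intervening genes, and many are active in few cell types. Placed beside a minimal promoter in a viral vector, an enhancer is taken out of its chromosomal setting, so that what is measured is the transcription of the vector with the element on an episome, the baseline of the vector included. SST interneurons are inhibitory neurons that release GABA and the peptide somatostatin and contact mainly the dendrites of other neurons. Parvalbumin (PV) interneurons come from the same embryonic source, the medial ganglionic eminence, whereas VIP interneurons come from the caudal one.

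The 92 members lay on 20 chromosomes, 12 each on chromosomes 1 and 4, at a median of 221337 bp from their assigned start site, with 50 upstream and 42 downstream. Just inside the lower bound was GRE73, at 100700 bp from Galnt5, with an SST fold of 2.81. Just outside it among intergenic GREs was GRE95, at 98743 bp from Pard3b, with an SST fold of 1.95. Just inside the upper bound was GRE285, at 497525 bp from Nsun3, with a fold of 1.07 on only 27 UMIs. The nearest intergenic GRE beyond that bound was GRE42, at 528589 bp from Tle1, with a fold of 1.00. The fold is explained with the results. In the GENCODE vM21 annotation of GRCm38, the assembly also called mm10 that the deposited files use, 11 of the 92 overlapped a gene, of which 9 overlapped noncoding genes alone and 2 lay in a protein-coding gene (GRE183 in Ankfn1 and GRE274 in Pde4d, in no exon; both were looked up after their values were seen). The deposited annotation assigned 83 different genes, and for 57 members its symbol was also that of the GENCODE protein-coding gene with the nearest start, with symbols that had since changed not matched. For 7 members GENCODE placed a protein-coding start closer than 100 kb. GRE80 and GRE86 both lay in an intron of the lincRNA Gm12648.

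The sequences below are the central 300 bases of 8 members on the plus strand of GRCm38, in lower case, with matches to the motifs searched in capitals. GRE80, GRE163 and GRE19 had the highest SST folds, and GRE86 is the nearest neighbour of GRE80, about 15 kb away. GRE80 is at chr4:94392091-94392390, GRE86 at chr4:94407640-94407939, GRE163 at chr12:65491093-65491392 and GRE19 at chr2:45924259-45924558.
GRE80: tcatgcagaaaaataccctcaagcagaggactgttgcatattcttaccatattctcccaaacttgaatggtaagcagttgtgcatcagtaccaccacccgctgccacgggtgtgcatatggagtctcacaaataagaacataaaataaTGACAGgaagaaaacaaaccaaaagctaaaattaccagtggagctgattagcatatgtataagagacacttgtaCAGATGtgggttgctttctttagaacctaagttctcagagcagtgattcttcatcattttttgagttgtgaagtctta
GRE86: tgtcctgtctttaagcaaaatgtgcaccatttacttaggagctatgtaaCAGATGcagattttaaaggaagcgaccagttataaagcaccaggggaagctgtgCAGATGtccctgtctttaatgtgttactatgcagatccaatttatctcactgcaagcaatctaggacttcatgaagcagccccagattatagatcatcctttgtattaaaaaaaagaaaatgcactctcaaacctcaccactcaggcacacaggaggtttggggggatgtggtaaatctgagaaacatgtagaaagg
GRE163: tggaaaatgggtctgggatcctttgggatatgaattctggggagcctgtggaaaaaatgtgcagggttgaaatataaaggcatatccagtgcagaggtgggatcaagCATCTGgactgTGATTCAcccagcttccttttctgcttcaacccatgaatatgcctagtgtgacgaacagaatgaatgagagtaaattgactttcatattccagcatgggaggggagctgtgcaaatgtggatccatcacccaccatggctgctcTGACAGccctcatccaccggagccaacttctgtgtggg
GRE19: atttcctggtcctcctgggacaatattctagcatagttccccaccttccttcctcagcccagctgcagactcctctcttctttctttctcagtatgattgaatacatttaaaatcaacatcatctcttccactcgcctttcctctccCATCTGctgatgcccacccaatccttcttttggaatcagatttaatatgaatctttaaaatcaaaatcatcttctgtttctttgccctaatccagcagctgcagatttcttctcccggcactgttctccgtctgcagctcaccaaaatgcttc

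The remaining 4 are shown because their readout was highest in another cell type or lowest in SST nuclei. GRE11, at chr17:69736637-69736936, had the highest PV fold. GRE102, at chr1:169408051-169408350, had a VIP fold that rested on 1 nucleus. GRE254, at chr12:58695581-58695880, and GRE8, at chr4:51486497-51486796, had the lowest SST folds among members with at least 300 UMIs.
GRE11: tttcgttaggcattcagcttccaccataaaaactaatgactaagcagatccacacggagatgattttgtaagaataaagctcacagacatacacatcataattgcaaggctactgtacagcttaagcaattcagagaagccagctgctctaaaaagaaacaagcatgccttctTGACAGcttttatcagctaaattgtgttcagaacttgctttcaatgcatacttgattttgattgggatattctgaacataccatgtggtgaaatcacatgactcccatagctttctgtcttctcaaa
GRE102: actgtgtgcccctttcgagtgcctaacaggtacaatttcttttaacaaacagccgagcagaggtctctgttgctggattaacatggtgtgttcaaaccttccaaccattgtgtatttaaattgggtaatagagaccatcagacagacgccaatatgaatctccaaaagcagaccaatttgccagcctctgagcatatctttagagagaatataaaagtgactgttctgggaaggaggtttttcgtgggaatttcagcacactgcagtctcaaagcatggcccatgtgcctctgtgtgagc
GRE254: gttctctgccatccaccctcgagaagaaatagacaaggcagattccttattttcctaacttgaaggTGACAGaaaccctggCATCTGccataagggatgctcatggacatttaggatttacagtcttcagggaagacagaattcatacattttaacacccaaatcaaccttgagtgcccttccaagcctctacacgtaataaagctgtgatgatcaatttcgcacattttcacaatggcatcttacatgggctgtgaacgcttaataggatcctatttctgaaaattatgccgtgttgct
GRE8: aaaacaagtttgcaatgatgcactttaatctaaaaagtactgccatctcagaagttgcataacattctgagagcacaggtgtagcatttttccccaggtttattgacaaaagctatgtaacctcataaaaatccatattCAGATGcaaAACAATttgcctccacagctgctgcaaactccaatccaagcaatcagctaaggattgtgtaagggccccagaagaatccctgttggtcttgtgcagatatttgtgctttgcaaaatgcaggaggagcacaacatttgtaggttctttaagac

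Of the 10 motifs searched on both strands, GRE80 held CAGATG, an E-box bound by basic helix-loop-helix factors, and TGACAG, bound by MEIS factors. GRE163 held both of these and TGATTCA, a match to TGANTCA, the pattern searched for AP-1, and GRE19 held the E-box alone. GRE254, with the second lowest SST fold of all members, also held the E-box and the MEIS motif, and GRE86 held the E-box at 2 places. CAGATG was in the central 300 bases of 45 of the 92 members (48.9%), 38.5% of the other GREs and 30.7% of the 323360 reference regions of the study, read at the same length. TGANTCA, with any base at its centre, was in 21.7% of the members, 22.6% of the other GREs and 13.0% of the reference regions. ATGCAAAT, the POU octamer, was in 6.52% of the members, 8.21% of the other GREs and 1.83% of the reference regions. TAATTA, the homeodomain core, was in 8.70%, 13.8% and 4.91%, and in 8.33% of the reference regions with a mean phyloP of at least 0.5. AGGTCA, bound by nuclear receptors, was in 2.17% of the members, 5.64% of the other GREs and 15.2% of the reference regions. TGACAG was at 23.9% against 24.1%, TTGGCA, bound by NFI factors, at 20.7% against 20.7%, AACAAT, bound by SOX factors, at 9.78% against 10.7%, and TGCTGAC, bound by MAF factors, at 7.61% against 7.27%. TGACGTCA, the CREB motif, was in 0 of the members and 0.479% of the reference regions.

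The members were less rich in G and C than the reference regions, with a median of 41.2% (from 29.7% to 57.7%) in the central 300 bases against 51.0%. The other intergenic GREs and those in introns were alike in this, with medians of 42.0% within 100 kb, 39.2% beyond 500 kb and 42.2% in introns. Conservation across placental mammals, as the mean phyloP score of each region, had a median of 0.716 and was at least 0.506, as the library was drawn from conserved regions. In width, 42 members were 300 bases and the widest 1226 bases. These are widths of the ATAC-seq regions, and the cloned fragments also carried flanking sequence on each side, which is not part of the widths, sequences or motif searches here.

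The snRNA-seq files held 47348 barcodes, of which 32335 had more than 200 UMIs (unique molecular identifiers, which count captured transcripts) outside the viral barcode columns and were kept as nuclei. Cellular UMIs summed to 2480128 to 2986442 per library. The kept nuclei carried 25866 different barcode names, and 5476 names occurred in more than 1 library, so nuclei were told apart by library and name. Nuclei were gated on fixed marker genes, with thresholds set after the data were seen: 3 UMIs of Sst gave 629 SST nuclei, and 101 nuclei had 3 Sst UMIs and 190 had 2, just under the gate. The 164 nuclei that passed the SST gate and another were set aside, and the other 31542 nuclei served as the comparison. These included 14979 nuclei that passed no gate, and the nuclei with 1 or 2 Sst UMIs. There were 244 PV and 265 NPY nuclei. The defining markers separated as the gates required, with 184 Sst UMIs per 10000 cellular UMIs in SST nuclei and 0.635 in nuclei with no gate. Gad1, a GABA-synthesis enzyme that neither gate used, was at 11.3 in SST nuclei and 1.15 in oligodendrocyte nuclei.

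As a set, the members were highest in SST nuclei in UMIs per nucleus. They gave 146959 UMIs in kept nuclei, 29.2% of all GRE UMIs for 32.1% of the GREs, and each of their 276 barcodes had at least 1 UMI. SST nuclei held 13.8 member UMIs per nucleus (95% Poisson interval 13.5 to 14.1, counting error only), PV nuclei 10.5 (10.1 to 10.9), NPY nuclei 6.36 (6.06 to 6.67), excitatory nuclei 5.19 (5.14 to 5.23) and VIP nuclei 4.02 (3.80 to 4.25). NPY nuclei here are nuclei with Npy, the transcript of neuropeptide Y, and without the SST gate. Glia and vessels held less: astrocytes 2.22, microglia 1.66, vascular cells 1.23 and oligodendrocyte precursors 0.949 UMIs per nucleus, and oligodendrocytes lay within this range. A member UMI was found in 77.3% of SST nuclei, 77.5% of PV nuclei, 64.1% of excitatory nuclei and 41.3% of oligodendrocyte nuclei, at median depths of 782, 1252.5, 1086 and 298 cellular UMIs. The barcodes with 200 or fewer UMIs, which were not kept, held 2.42 member UMIs each, and 51.6% of them had one. Per 1000 cellular UMIs these barcodes held 21.3 member UMIs, more than the 15.5 of SST nuclei and the 8.10 of PV nuclei, so no level of a type was read as free of background. Thinned to 300 cellular UMIs, SST nuclei held 4.31 member UMIs, PV nuclei 2.51, NPY nuclei 2.02, VIP nuclei 1.91 and excitatory nuclei 1.29, with 74 SST and 506 excitatory nuclei too shallow and left out. The shallow barcodes held their 2.42 at a median depth of 123 UMIs and were not thinned. The depths therefore differ, and no type was read as above these barcodes.

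The ratio of member UMIs per nucleus in SST nuclei over the other nuclei was 3.22, and over the 10 libraries it ran from 1.65 through a median of 3.07 to 5.08. It was above 1 in every library, 2.60 in the 5 libraries whose names begin with 1 and 4.14 in the 5 that begin with 2. The member sum includes 7563 UMIs of GRE80, described below, and the ratio without it was not computed. All GREs together gave 3.01. The level of viral transcripts as a whole was thus higher in SST nuclei, and the share of member UMIs among all GRE UMIs was 31.0% in SST nuclei, 31.1% in PV nuclei, 28.7% in excitatory nuclei and 27.4% in VIP nuclei. Every fold given here includes this higher level. Beside it stands the relative fold, the GRE's share of all GRE UMIs in SST nuclei over its share in the other nuclei.

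For each GRE, the SST fold-enrichment was computed as the mean UMIs per SST nucleus over the mean per other nucleus, after 0.01 was added to each. The median fold of the 92 members was 2.03, with quartiles at 1.22 and 2.69 and a range from 0.811 to 9.08. Over all GREs of the library it was 1.94. The fold was above 1 for 84 members, while 90.6% of all GREs were above 1, and above 2 for 47, while 48.8% of all GREs were above 2. The counting interval lay above 1 for 64 members (68.6% of all GREs) and below 1 for 0. With each of the 3 barcodes alone it was above 1 for 40 members (44.3% of all GREs), and in both sets of libraries for 64 (66.2% of all GREs). These shares of the members were close to those of the whole library. Counting intervals treat UMIs of the same nucleus as independent, so they are too narrow where 1 nucleus holds many. Among members with at least 300 UMIs, the top SST nucleus held a median of 20% of the SST UMIs. The relative fold had a median of 0.905, and was above 1 for 40 members (39.7% of all GREs). Pearson's r of log2 SST folds over the 92 members was 0.34, 0.50 and 0.49 between barcodes and 0.48 between library sets. Over the 59 with at least 300 UMIs it was only 0.17, 0.34 and 0.36, and 0.30.

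The fold went with the number of UMIs. The 33 members with fewer than 300 UMIs had a median fold of 1.15 and a highest of 2.82, and the added 0.01 is large beside their means. The 30 members with 300 to 2000 UMIs had a median of 2.35, and the 29 with more than 2000 had 2.70, all above 1. The ratios of summed UMIs, which the added 0.01 does not enter, were 2.49, 2.91 and 3.31, and the median relative folds 0.708, 0.963 and 0.940. How many UMIs a GRE gave also depends on how much of its virus was in the library, which was not analysed here. Members 100 to 200 kb from the start site (42) had a median fold of 2.28, those at 200 to 300 kb (21) 1.99 and those at 300 to 500 kb (29) 1.57, while their median UMIs were 1007.5, 717 and 454. Among members with at least 300 UMIs the 3 medians were 2.69, 2.44 and 2.43. The intergenic GREs within 100 kb had a median of 2.19 and those beyond 500 kb 1.48, or 2.65 and 2.60 for those with at least 300 UMIs, beside 2.58 for the members. Upstream members had a median fold of 2.16 and downstream members 1.98, with median UMIs of 1007.5 and 543, while the ratio of their summed UMIs was 2.83 and 3.76. The downstream members, and those with more than 2000 UMIs, include GRE80, which had an SST fold of 8.83 on 7563 UMIs. Their summed ratios were not computed without it.

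GRE80 was the member with the firmest SST enrichment. Its region is 300 bases wide, 164556 bp from the start of Caap1, a regulator of apoptosis. It gave 7563 UMIs, the third most of the members, and 1.75 UMIs per SST nucleus against 0.189 per other nucleus. Its SST fold was 8.83 (counting interval 8.32 to 9.37), the second highest of all GREs of the library, and its relative fold was 3.07. Its level was next highest in NPY nuclei, with 0.551 UMIs per nucleus, then PV (0.410), excitatory (0.198), VIP (0.145), astrocyte (0.102) and oligodendrocyte nuclei (0.0786), and microglia, vascular cells and oligodendrocyte precursors were all under 0.04. The level in SST nuclei was thus more than 3 times that of any other gated type. A GRE80 UMI was in 161 of the 629 SST nuclei (25.6%, exact binomial interval 22.2% to 29.2%), 7.77% of excitatory and 4.12% of oligodendrocyte nuclei. The binomial interval treats nuclei as independent and leaves out the spread between libraries. The 3 barcodes of GRE80 gave folds of 9.30, 8.04 and 7.37, and the library sets gave 7.82 and 10.2. The 10 libraries ran from 4.81 through a median of 8.62 to 16.3. Without the SST nucleus with most of its UMIs the fold was 8.28. Even the lowest of these, in 1 library, was above the pooled fold of every member but GRE163 and GRE19.

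GRE163 had the highest fold, 9.08 (7.63 to 10.7), but on 547 UMIs and only 15 SST nuclei. Its region is 601 bases wide, 265725 bp from Wdr20rt. One SST nucleus held 33.9% of its 124 SST UMIs, and without it the fold was 6.16. The library sets gave 2.07 and 17.9, the barcodes 8.07, 1.09 and 5.58, and the libraries ran from 0.709 to 33.1 with a median of 2.71. The libraries and barcodes of GRE163 therefore differed far more than those of GRE80.

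GRE19 had a fold of 6.90 (6.16 to 7.71) on 2323 UMIs, and a relative fold of 2.61. It lies 227803 bp from the start of 1700019E08Rik, and the nearest protein-coding start was that of Zeb2, a transcription factor of developing interneurons, 807013 bp away. GRE19 gave 0.485 UMIs per SST nucleus, 0.361 per PV nucleus, 0.143 per NPY nucleus, 0.0738 per excitatory nucleus and 0.0189 per VIP nucleus. Its level per nucleus was thus lower in PV than in SST nuclei but above that of NPY, excitatory and VIP nuclei. These levels were not corrected for depth, with medians of 1252.5 cellular UMIs in PV and 782 in SST nuclei. The PV fold of GRE19 was 4.69 (3.79 to 5.75). The barcodes gave 7.94, 4.84 and 5.48, the library sets 4.56 and 10.8, and the libraries ran from 0.695 to 30.1 with a median of 4.77 and 8 of 10 above 1. These 3 members were the only ones with a fold above 5, as were 3.14% of all GREs, and they stayed above 5 without the SST nucleus with most of their UMIs. GRE19 was at 4.91 without library 2-2.

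The next 5 members by the same measure lay between 3.66 and 4.37. GRE81, in the lincRNA Gm48972, had 4.37 (3.82 to 4.98), with 9 of 10 libraries above 1 and both library sets alike, at 4.30 and 4.45. GRE65, 161309 bp from Grin3a, had 4.02 (3.46 to 4.65), but its barcodes gave 0.890, 2.82 and 4.50 and its median library 1.31. GRE17, 132710 bp from Pcdh9, a protocadherin of cell adhesion, had 3.98 (3.60 to 4.39), with barcodes at 3.54, 3.41 and 3.93 and 9 of 10 libraries above 1. GRE9 had 3.72 (2.98 to 4.60) on 852 UMIs, and 2.43 without library 1-1. GRE11 had 3.66 (2.99 to 4.45) on 1097 UMIs. The counting intervals of these 5 overlapped, so that their order was not resolved. Just below, GRE16 had 3.66 (3.19 to 4.19), with all 10 libraries above 1, as did GRE80 and GRE170 among the members named here.

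The members with most UMIs were not those with the highest folds, apart from GRE80. GRE268 gave 8644 UMIs and had an SST fold of 1.67 (1.49 to 1.88), with 13.7% of SST and 4.20% of oligodendrocyte nuclei holding a UMI. Its relative fold was 0.564, so that it took a smaller share of the viral transcripts in SST than in other nuclei. GRE179, 192608 bp from D730050B12Rik, gave 8425 UMIs, a fold of 2.81 (2.56 to 3.08) and a relative fold of 0.956. The 10 members with most UMIs held 41.1% of all member UMIs.

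At the low end, GRE254 had an SST fold of 0.822 (0.568 to 1.29), GRE8 0.912 (0.621 to 1.38), GRE36 1.13 (0.794 to 1.60), GRE252 1.15 (0.784 to 1.73) and GRE147 1.16 (0.876 to 1.52), each on at least 450 UMIs. Their counting intervals all held 1, and their upper bounds lay below the median member. Their relative folds were between 0.230 and 0.418. GRE147, 221953 bp from Syt1, the calcium sensor of transmitter release, gave 1799 UMIs, 41 of them in SST nuclei.

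Several members were highest in another gated type. The SST fold was the highest of the 10 types for 47 members (52.6% of all GREs) and the PV fold for 27 (27.2% of all GREs). The PV fold was above 1 for 69 members (76.0% of all GREs), with a median of 1.53, and the excitatory fold for 69 (84.3% of all GREs), with a median of 1.13. The NPY fold was above 1 for 45 members (42.2% of all GREs), the VIP fold for 26 (31.7%), the astrocyte fold for 8 (7.32%) and the vascular fold for 6 (3.14%). The medians were 0.978 for NPY, 0.820 for VIP, 0.655 for astrocytes, 0.514 for oligodendrocytes and 0.476 for vascular cells.

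GRE11 had the highest PV fold, 8.47 (6.80 to 10.4), from 83 UMIs in 14 PV nuclei of 8 libraries. It lies 297460 bp from A330050F15Rik, and the nearest protein-coding start was that of Dlgap1, a scaffold protein of excitatory synapses. Without the PV nucleus with most of its UMIs (37), the PV fold was 4.82. GRE11 was thus high in PV nuclei (0.340 UMIs per nucleus) and in SST nuclei (0.141), and low in excitatory (0.0314) and VIP nuclei (0.0409). GRE36 had a PV fold of 5.00 (3.68 to 6.66) beside its SST fold of 1.13, and 2.53 without 1 PV nucleus that held 22 of its 42 PV UMIs.

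GRE102, 123264 bp from Nuf2, a kinetochore protein, had a VIP fold of 12.4, the highest of any member in any type, from 91 UMIs that were all in 1 of the 318 VIP nuclei, and the fold without it was 0.418. GRE254, at 316287 bp from Sec23a, a coat protein of secretory vesicles, had an NPY fold of 7.40 (5.46 to 9.85) from 42 UMIs in 5 nuclei, and 3.27 without the nucleus with 25 of them. GRE259 had a vascular fold of 2.48 and 0.666 without 1 nucleus, GRE252 an astrocyte fold of 1.79 and 0.871 without 1 nucleus, and GRE36 a microglia fold of 1.86 and 0.856 without 1 nucleus. GRE99 had the highest excitatory fold, 1.62 (1.54 to 1.70), from 1413 UMIs in 422 nuclei of all 10 libraries. For oligodendrocytes the highest fold was 0.948 (GRE117) and for their precursors 0.877 (GRE49), so that no member with at least 300 UMIs was above 1 there.

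There were 9 pairs of members with the same assigned gene, 4 of them with at least 300 UMIs on both members. GRE80 and GRE86 are 15167 bp apart in the intron of Gm12648, and GRE86 had an SST fold of 1.59 (1.13 to 2.22) on 649 UMIs, well below the 8.83 of GRE80, with PV (1.99) as its highest type. A single nucleus held 43.5% of its 23 SST UMIs, and its folds in the library sets were 0.935 and 2.41. GRE36 and GRE168, 16574 bp apart and assigned to Fam92a, had SST folds of 1.13 (0.794 to 1.60) and 2.86 (2.48 to 3.28), and PV folds of 5.00 and 1.31. By these pooled folds 1 member of this pair was higher in PV nuclei and the other in SST nuclei. The PV fold of GRE36 rested in part on 1 nucleus, as given above. The SST fold of GRE168 was just under 1 with 1 of its barcodes alone. GRE99 and GRE16 are 3283 bp apart, upstream of Clec14a, an endothelial gene, and had 2.38 (2.03 to 2.79) and 3.66 (3.19 to 4.19). These intervals hold counting error only, and whether these members differ was not tested. With 1 library left out, GRE99 ran from 2.00 to 2.66 and GRE16 from 3.25 to 4.01. The pair GRE173 and GRE250, on both sides of Tshz3 and 766647 bp apart, had 1.38 (1.02 to 1.84) and 2.28 (1.67 to 3.07), but 1 nucleus held 61.3% of the SST UMIs of GRE250, whose fold was 1.16 without library 1-5. GRE173 was at 0.869 without library 2-2, 0.928 in library set 1 and 0.720 with barcode 1 alone. In the other 5 pairs, near Mir181a-1, Mirlet7j, Nsun3, Pros1 and Triqk, at least 1 member had fewer than 300 UMIs. GRE32 and GRE85 had 1.57 and 1.45, on 85 and 155 UMIs, and GRE285 and GRE275 had 1.07 and 1.30, on 27 and 84. GRE236 and GRE205 had 2.69 and 1.08, GRE134 and GRE108 2.69 and 2.01, and GRE6 and GRE135 2.63 and 0.935. The amount added to each mean pulls folds on few UMIs toward 1, so neither closeness nor difference was read from these pairs. The fewest UMIs in these pairs were the 23 of GRE135, which gave 0 UMIs in SST nuclei (a count of 0 allows up to 3, as a one-sided limit).

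The genes nearest to the members were read in the same nuclei. Of 84 nearest protein-coding genes, 55 had at least 100 UMIs in gated nuclei, and 10 of these had their highest level per 10000 cellular UMIs in SST nuclei. Of all 11666 genes with that many UMIs, 7.11% did. Among the assigned genes it was 8 of 39. Some rested on few UMIs, such as Triqk, with 8 UMIs in SST nuclei and levels of 0.143 there and 0.127 in astrocytes. The whole library was picked for SST signal in ATAC-seq, and genes near the other GREs were not counted. These shares were therefore not read as a trait of the members. Grin3a, an NMDA receptor subunit nearest to GRE65, had 11.5 UMIs per 10000 in SST nuclei, 4.67 in oligodendrocyte precursors, 0.907 in VIP, 0.743 in NPY, 0.202 in excitatory and 0.0316 in PV nuclei. Calb1 (calbindin, a calcium-binding protein of interneurons) beside GRE198, with 6.59 in SST and 0.823 in PV nuclei, and Chl1 (a cell adhesion molecule) beside GRE78, with 9.94 in SST nuclei, 8.82 in oligodendrocyte precursors, 7.98 in VIP and 1.33 in PV nuclei, were picked after their values were seen. The SST folds of GRE198 and GRE78 were both 1.37 (1.02 to 2.22), on 30 and 28 UMIs. Caap1, which is assigned to GRE80 but is not its nearest protein-coding gene in GENCODE, was measured at 0.303 in SST and 0.387 in excitatory nuclei, Zeb2 at 0.998 in SST and 2.09 in VIP nuclei, and Pcdh9, beside GRE17, at 2.92 in SST and 7.24 in oligodendrocyte nuclei. Clec14a, beside GRE16 and GRE99, was at 1.47 in vascular cells and 0.0535 in SST nuclei, and Syt1, beside GRE147, at 39.0 in SST, 33.6 in excitatory and 39.5 in VIP nuclei. Levels of different genes are not corrected for length.

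In ATAC-seq, the study had picked the GREs for signal in SST over PV and VIP samples, so the values here only describe the members. Over all 92 members there were 269 and 801 reads in the 2 SST samples, 19 and 18 in PV and 15 and 26 in VIP. SST replicate 2 had more reads than replicate 1 on 78 members, and 25 members had 0 reads in replicate 1. A member had 3 to 74 SST reads with a median of 9, and 59 members had 0 reads in PV and VIP. A peak in both SST peak lists covered 10 members, a peak in 1 list 51 and none 31. Only 7 members passed the filter on low counts, through their SST reads, and all 7 were called higher in SST than in the mean of PV and VIP by edgeR's quasi-likelihood test, as were 8.15% of the 40338 regions tested. The members were picked for SST signal in these same samples and passed the filter through them, so this count supports nothing further.

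GRE163 had most reads, 20 and 54 in SST, 1 and 5 in PV and 1 and 4 in VIP. GRE65 had 22 and 36 in SST, 1 and 1 in PV and 0 and 4 in VIP, GRE170 19 and 12 in SST, and GRE263 11 and 18 in SST. The SST folds of these members in the screen were 9.08, 4.02, 2.47 and 0.973. GRE263, the last of them, had fewer than 300 UMIs, where the amount added to each mean pulls the fold toward 1. Its fold was therefore not read as a lack of SST enrichment. GRE56, with 9 and 18 reads in SST, had a fold of 2.61, and of 1.59 without library 2-3. GRE268 had as many SST reads in all, 15 and 12, and a fold of 1.67. Over all 92 members, Spearman's rho between SST fold and SST reads was 0.31, and 0.34 over the 59 with at least 300 UMIs, as a description. The 46 members with more SST reads had a median fold of 2.36 and median UMIs of 1164.5, and the 46 with fewer had 1.66 and 467. GRE80 had 1 and 15 reads in SST, 0 and 0 in PV and 1 and 0 in VIP, and GRE19 2 and 9 in SST and 0 in the other 4 samples. The 10 members with a peak in both SST lists had a median fold of 2.43, the 51 with a peak in 1 list 2.26 and those with none 1.59. Their median UMIs were 889.5, 896 and 480, and their median relative folds 0.912, 0.940 and 0.804, which did not follow the number of lists. The part of UMI number in this difference was not tested.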

How the data were processed

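Single-nucleus RNA-seq of 1 PESCA sample (10 libraries) and ATAC-seq of 6 samples were used. For PESCA, the authors aligned reads with the inDrops pipeline to GRCm38 with a contig for each viral barcode, and deposited UMI counts per gene and viral barcode, with amplified viral libraries included. For ATAC-seq, per the labels, reads were trimmed with Trimmomatic 0.33, aligned to mm10 with Subread 1.4.6-p3 and deposited as counts per reference region (featureCounts). The deposited peak lists hold −log10 q-values of MACS2 peaks that HOMER also called, per sample. The deposited phyloP score is a mean over each region.

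UMIs of the 3 barcodes of a GRE were summed in barcodes with more than 200 UMIs outside the viral barcode columns (a pooled viral column counted as cellular, through which 439 nuclei passed). Nuclei were gated on Sst, Pvalb, Vip or Npy alone, or on summed marker UMIs for the other types, with at least 3 UMIs for SST, VIP, NPY, excitatory, oligodendrocyte precursor, microglia and vascular nuclei, 2 for PV, 5 for oligodendrocytes and 8 for astrocytes. Excitatory nuclei could hold at most 1 UMI of the inhibitory markers. Nuclei past several gates were left out of each type, and doublets were treated in no other way. Each type was compared with all nuclei that did not pass its gate. With 1 sample no test was made; counting intervals are exact (95%). Nuclei were told apart by library and barcode name.

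ATAC counts of all regions were fitted with edgeR 4.0.16 (R 4.3.3; TMM, filterByExpr, quasi-likelihood test, Benjamini-Hochberg adjustment, threshold 0.05), checked on simulated data. DESeq2 1.42.0 was an alternative. Reads within the reference regions ranged from 1801883 to 2256073 per sample. Each ATAC sample came from the nuclei of 1 animal, in independent experiments. Sequences came from GRCm38 with samtools 1.23.1, and genes from GENCODE vM21. Other tools were Python 3.11.15, scipy 1.17.1 and pandas 2.3.3.

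The members, lists and motifs were chosen with earlier results of these data known, and gate thresholds were set after the data were seen. Members named were the 8 highest and 5 lowest by SST fold, and the highest for each other type, among those with at least 300 UMIs; the 3 with most UMIs; the 5 with most SST ATAC reads (GRE268 tied with the fifth); hits of the study; members that share an assigned gene or lie within 50 kb of another GRE; and those at the distance bounds. Other members are said to be chosen after their values were seen. The study's own specificity columns for the GREs were not used.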

Additional observations from a re-analysis of the deposited data

Results flagged for a closer look

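Of the viral barcode columns, 303 belong to none of the annotated GREs and entered no comparison, and held 5791 UMIs in kept nuclei; they were picked out as data that no comparison used. This was 1.14% of all viral UMIs, spread over 297 columns, with at most 550 UMIs on one. The level was 0.612 UMIs per SST nucleus (385 UMIs) and 0.167 per other nucleus, a ratio of 3.66, beside 3.22 for the 92 members. With the 861 columns of GREs they make up 1164 columns, as many as the barcodes on the designed list, of which only some were paired with a GRE. The source of these UMIs was not tested.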

How the results depend on the processing

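No label ties the PESCA libraries to animals, so the spread between animals was not computed, and counting intervals leave it out. The added 0.01 pulls the folds of members with fewer than 300 UMIs toward 1, and those of some with more, such as GRE163. The summed SST ratio of 3.22 lay between 2.60 and 4.14 under every alternative run for it, and between 3.06 and 3.45 with 1 library left out. The median fold of 2.03 was 2.39 with stricter gates, 1.64 with looser gates, 1.52 in library set 1 alone and 1.67 after thinning to 300 UMIs. It was 1.30, 1.27 and 1.27 with barcode 1, 2 or 3 alone, 2.69 with 0.001 added and 1.29 with 0.1, and 1.85 to 2.07 with 1 library left out. As a share of all viral UMIs it fell below 1, to 0.905, and the number of members above 1 fell from 84 to 40; with 1 library left out that number was 81 to 84. Of the named members, as a share, GRE6 was at 0.922, GRE49 0.847, GRE56 0.921, GRE86 0.631, GRE99 0.841, GRE170 0.848, GRE173 0.491, GRE179 0.956 and GRE268 0.564. GRE250 was at 0.907 with looser gates. In set 1 GRE86 was at 0.935, GRE173 0.928 and GRE268 0.960. With barcode 1 GRE65 was at 0.890, GRE173 0.720 and GRE250 0.690, with barcode 2 GRE168 was at 0.995, and with barcode 3 GRE32 was at 0.892, GRE49 0.987, GRE86 0.916, GRE134 0.772 and GRE268 0.987. With 1 library left out, GRE6 fell from 2.63 to 1.44 (without 2-2), and GRE173 ran from 0.869 (without library 2-2) to 1.59 (without 1-1). The cause of these changes was not tested. Alternatives chosen after seeing the data, the UMI minimum without the pooled viral column and the SST nuclei past several gates included, gave median folds of 2.05 and 2.11. In ATAC-seq, 7 members were called higher; 2 were without the filter, where all regions enter the adjustment, and 4 with DESeq2. With 1 sample left out there were 5 (without SST replicate 2) to 16 (without PV replicate 1), of 6 to 19 that passed the filter. Replicate numbers did not pair the samples (correlations of deviations 0.02, -0.04 and 0.03), and a replicate block again gave 7. ATAC depth limits the members, since 47 had fewer than 10 SST reads.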

Other observations

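Among the members not named by rule, 5 had an SST fold above 1 in all 10 libraries, as did GRE16, GRE80 and GRE170: GRE28, GRE59, GRE242, GRE273 and GRE274. They were picked after their values were seen. The share of all GREs above 1 in every library was not counted, so this number is not read as a trait of the members.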
